A study of Mus musculus with 18 samples.

Results

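The response of mouse liver to interleukin-1β (IL-1β), as recorded by SMART-Seq v4 (V4), a kit for very small amounts of RNA, is described here over all genes of the V4 table. The members are the 6 V4 libraries of the 18 libraries in the series, chosen by their kit label, 3 from mice given IL-1β and 3 from mice given saline. All 6 mice were male C57/B6J animals aged 12 weeks. The treated mice received 20 µg/kg of IL-1β and the controls saline, in both cases 4 h before the liver was taken, by injection into the abdominal cavity, and the livers were perfused. The mice are lettered here in the order of their label numbers within each treatment, A, B and C for IL-1β and D, E and F for saline, and counts are given in that order. V4 copies polyadenylated RNA and does not keep the strand. From 0.8 to 1.3 ng of RNA was used per V4 library, with paired reads of 150 bp, and RNA of the same mice also entered the stranded TruSeq and Pico kits, whose tables are used below only to show where V4 differs. The question was what a response read from about 1 ng of RNA holds, and which functions it holds or loses.

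IL-1β binds its receptor on liver cells and signals through MyD88 and IRAK kinases to NF-κB, and with IL-6 family cytokines acting through STAT3 it starts the acute-phase response. In that response hepatocytes make large amounts of defence and iron- or metal-binding proteins for the blood, while transcripts of many of their metabolic enzymes fall. Transcription factors of the NF-κB, STAT and C/EBP families are known to act on the promoters of acute-phase genes.

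The V4 counts summed to 12013453 to 12352473 reads per library, with 13916 to 15373 of 18051 genes at 1 read or more. The authors had resampled the reads to like depth, and the totals after IL-1β lay within the range of those after saline. The libraries carried hepatocyte transcripts throughout: albumin (Alb), the main plasma protein of hepatocytes, took 1.44% to 1.67% of the counts after IL-1β and 2.24% to 2.43% after saline. Of 8 hepatocyte markers, 1 was called higher and 3 lower, and their summed counts ran from 540643 to 599242 after IL-1β and from 656173 to 829935 after saline. Called means a Benjamini-Hochberg adjusted p of at most 0.05 by limma-voom with library totals. The V4 library of saline mouse F stood apart from the other two of its group. Mitochondrially encoded mRNAs made up 0.859% of its counts against 1.60% and 1.65% in the others. Its Spearman correlations with its group were 0.941 and 0.943, where the other pair reached 0.963 and the IL-1β pairs 0.944 to 0.949. Relative to these mates, its transcripts shorter than 1 kb were higher by a median log2 of 0.56 and those of 4 to 6 kb were lower, at −0.21, over the genes averaging 200 reads or more in V4. Other libraries also differed from their mates under 1 kb, IL-1β A at 0.32 and saline D at −0.35. Counts of list members that moved by over 1.5 times when 1 library, that of mouse F or another, was left out are given with each list. The tissue is a bulk sample, so fewer cells of a type and less RNA per cell cannot be told apart.

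Sequences upstream of the genes with the largest changes, and of acute-phase genes, all called higher but Orm3, are shown first. For the 2 largest rises and the largest fall, the promoter is printed from 250 bases before to 50 bases after the start site, from RefSeq on GRCm38.p6, at chr2:32387690-32387989 for Lcn2, chr7:46715627-46715926 for Saa3 and chr9:110880024-110880323 for Tmie, all on the minus strand. Capitals mark a C/EBP match, read on either strand, in Lcn2 and Saa3, and a κB match in Tmie.
Lcn2: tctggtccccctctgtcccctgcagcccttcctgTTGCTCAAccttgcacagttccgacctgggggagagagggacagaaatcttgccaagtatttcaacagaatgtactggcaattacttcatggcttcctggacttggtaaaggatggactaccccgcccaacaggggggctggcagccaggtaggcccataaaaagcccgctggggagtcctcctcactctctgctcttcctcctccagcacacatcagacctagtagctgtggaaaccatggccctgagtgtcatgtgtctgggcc
Saa3: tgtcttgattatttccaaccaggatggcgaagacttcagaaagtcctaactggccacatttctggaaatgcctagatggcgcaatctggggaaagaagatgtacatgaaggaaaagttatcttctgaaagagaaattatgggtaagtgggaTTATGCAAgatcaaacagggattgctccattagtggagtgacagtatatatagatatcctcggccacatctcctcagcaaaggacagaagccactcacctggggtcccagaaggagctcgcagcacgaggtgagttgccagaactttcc
Tmie: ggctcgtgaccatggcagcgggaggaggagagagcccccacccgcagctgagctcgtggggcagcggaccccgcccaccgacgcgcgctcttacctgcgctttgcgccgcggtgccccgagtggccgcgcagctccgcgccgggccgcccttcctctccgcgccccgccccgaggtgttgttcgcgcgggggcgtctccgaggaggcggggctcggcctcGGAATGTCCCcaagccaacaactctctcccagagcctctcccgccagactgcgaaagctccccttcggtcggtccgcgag
Both strands were searched for the C/EBP motif TTGCNNAA, the STAT motif TTCNNNGAA and the κB consensus. Of 10756 promoters matched by symbol, 8.91% held the C/EBP motif, 7.21% the STAT motif and 5.19% the κB motif. A κB and a STAT match shared bases in 6 promoters, a κB and a C/EBP match in 1, and a C/EBP and a STAT match in 0. Among 448 promoters of genes called higher the shares were 11.8%, 10.3% and 7.37%, and among 942 of genes called lower 9.98%, 7.01% and 4.46%. Of the 22 acute-phase promoters in the table, 12 held the C/EBP motif (54.5%), 6 the STAT motif (27.3%) and none of the 22 the κB motif. The 13 C/EBP matches of these 12 genes lay 12 to 245 bases before the start site, 8 of them within 150 bases. Further examples follow with 10 bases on each side and the match in capitals, to show how the letters recur among acute-phase genes of different families.
Saa1 (chr7:46743145-46743172, minus strand): tgtgctcccaTTGCACAAtgagggagaa
Saa2 (chr7:46751640-46751667, plus strand): tgtgctcccaTTGCACAAtgagggaaaa
Orm2 (chr4:63362319-63362346, plus strand): agagaacattTTGCGCAAgacatttccc
Orm3 (chr4:63356027-63356054, plus strand): agggaacattTTGCACAAgacatttatc
Fga (chr3:83026008-83026035, plus strand): ctacagagaaTTGAGCAAgagtttctgg
Fgb (chr3:83049926-83049953, minus strand): tgggaagatgTTGCTCAAatgataaagc
C3 (chr17:57228164-57228191, minus strand): ggaaactatgTTGCGAAAttttgggcag
Saa1 and Saa2 carry almost the same window, as do Orm2 and Orm3, and these pairs are close copies whose reads the counting may have split. A match is a description of letters and was not tested as a binding site.

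In V4, 649 genes (3.6% of 18051) rose after IL-1β and 1337 (7.41%) fell, 11% in all. Those that rose made up 32.7% of the calls. With TMM scaling, which sets the bulk of genes level, 864 (4.79%) rose and 874 (4.84%) fell, 9.63% in all and a share of 49.7% higher, and the median log2 fold change over all genes moved from −0.22 to −0.06. Read counts of the treatments did not overlap for 8.71% of genes on the higher side and 18.2% on the lower side. Leaving out a library moved the counts by over 1.5 times in most cases. The genes that rose numbered 373 without IL-1β mouse B, 381 without saline D and 341 without saline E, and those that fell 751, 596 and 626 without IL-1β A, B and C and 762 and 567 without saline D and E. Without saline F, 589 rose and 1504 fell.

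**Figure D1:**
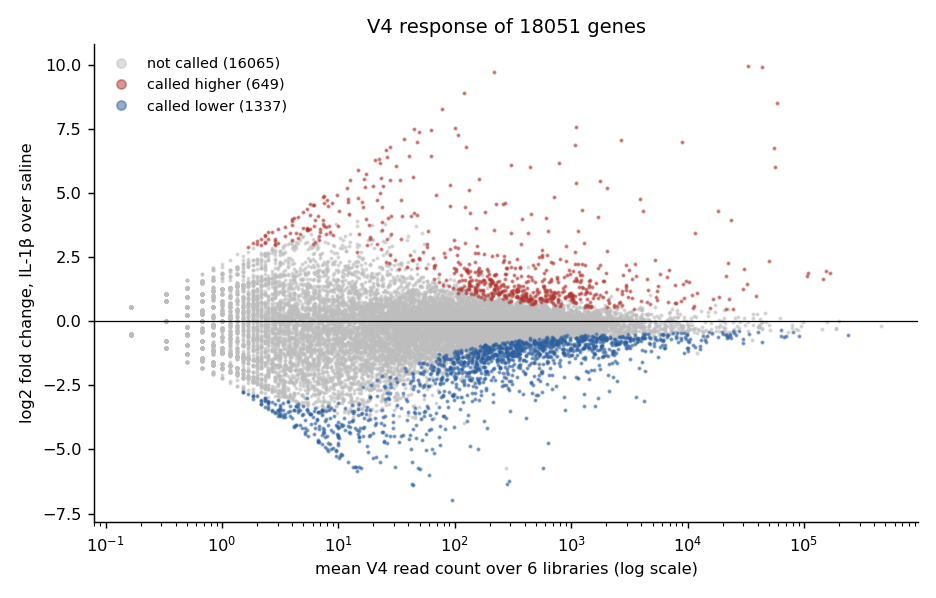
Log2 fold change (IL-1β over saline, vertical axis) against the mean V4 read count over 6 libraries (horizontal axis, log scale) for 18051 genes, 1 point a gene. Red points are the 649 genes that rose and blue points the 1337 that fell, and genes of low count needed a larger change to be called.

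Secreted defence proteins were among the largest rises. Lcn2, which encodes the siderophore-binding lipocalin 2, had 59567, 63472 and 73806 reads in the IL-1β libraries and 50, 53 and 106 in the saline libraries, a log2 fold change of 9.95 ± 0.34 (SE) with an adjusted p of 9.87e-08. Reg3b, an antibacterial lectin better known from gut and pancreas, went from 0 in every saline library to 277, 198 and 243 reads, at least 239-fold higher against a floor of 3 reads over the group. No IL-1β library of either gene came near a saline library. The gene model Gm10309 was also at 0 in the saline libraries, with 140, 142 and 180 reads after IL-1β, at least 154-fold higher. Adcy1, an adenylyl cyclase, had 82, 77 and 108 reads after IL-1β and none in 3 saline libraries, at least 89.0-fold higher, and Ccl20, a chemokine for CCR6-bearing lymphocytes and dendritic cells, had 123, 140 and 32 against none, at least 98.3-fold higher. Timp1, an inhibitor of matrix metalloproteinases, had 143, 122 and 111 reads against 1 read in the whole saline group, a ratio of 376 with an exact 95% counting interval of 67.1 to 14890. Niacr1, the niacin receptor, had 275, 198 and 128 reads against 4, 0 and 0, a log2 fold change of 7.53 ± 0.85. In saline liver all of these genes were at few or no reads.

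Of the 12 largest falls, all but Cyp7a1 had a count of 0 in at least 1 IL-1β library. Cyp7a1, the rate-limiting enzyme of bile acid synthesis, had 20, 16 and 28 reads after IL-1β and 1141, 961 and 1281 after saline (log2 −5.71 ± 0.45). Tmie, a membrane protein of the inner ear, had 9, 0 and 0 reads after IL-1β and 98, 161 and 303 after saline (log2 −6.99 ± 1.07). Mycl1, a MYC family factor, had 0, 0 and 4 against 93, 91 and 75 (log2 −6.37 ± 0.76), and Wee1, a kinase that holds back mitosis, 4, 0 and 0 against 90, 69 and 94 (log2 −6.33 ± 0.76). In each the treatments were well apart, but 1 IL-1β library held nearly all the reads left. Arrdc3, an arrestin-like adaptor of receptor uptake, had 0, 46 and 11 reads against 731, 465 and 427 (log2 −6.35 ± 1.13). F3, tissue factor, which starts coagulation, had 4, 0 and 2 against 105, 90 and 54 (log2 −5.49 ± 0.82). The fitted falls of the same genes were smaller in TruSeq, with a log2 of −3.20 ± 0.45 for Tmie, −3.76 ± 0.43 for Mycl1, −4.83 ± 0.45 for Wee1, −3.99 ± 0.33 for Arrdc3 and −2.32 ± 0.28 for F3. For none of these 5 genes was the difference between the kits called. They were chosen by the size of their V4 fall, so a smaller fall in another kit can follow from that choice alone.

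**Figure D2:**
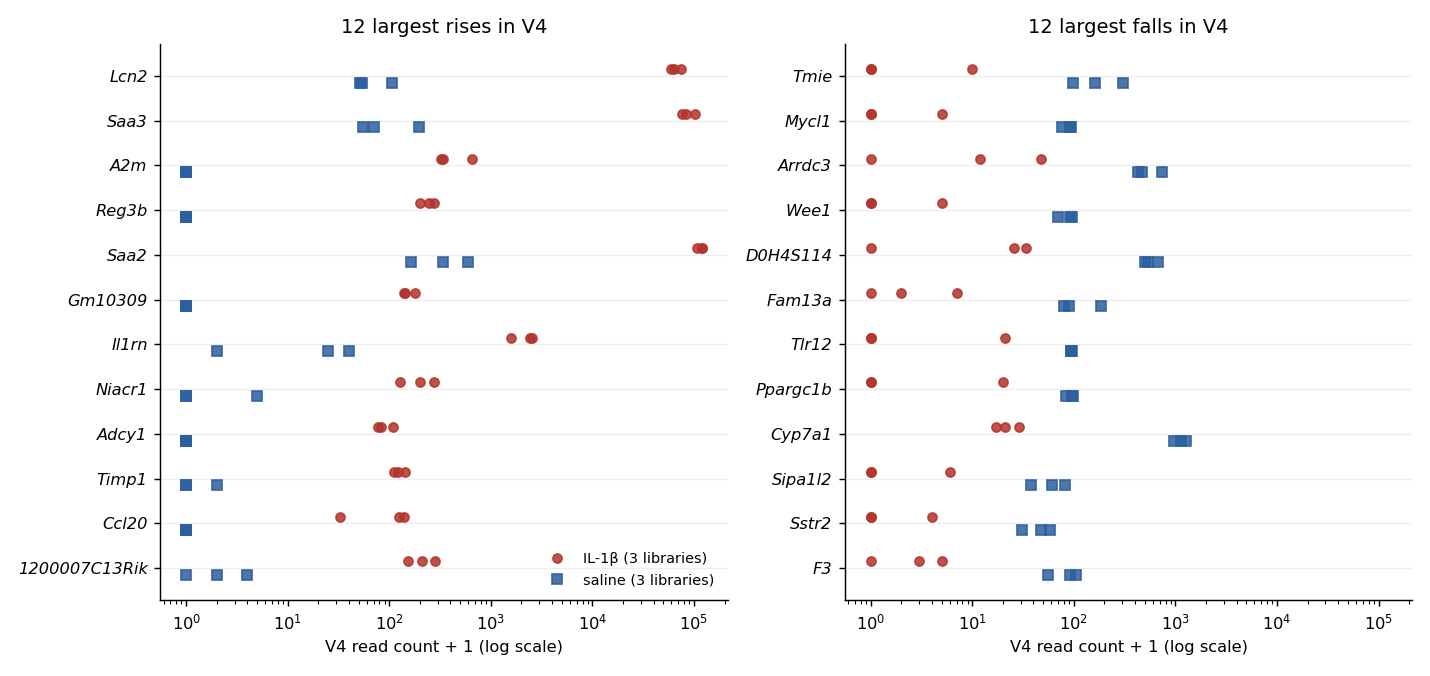
V4 read count plus 1 in each library (horizontal axis, log scale) for the 12 largest rises and 12 largest falls, with IL-1β libraries as circles and saline libraries as squares, 3 of each. The treatments do not overlap in any of the 24 genes, a condition of their choice, and most of the falling genes reach 0 reads in an IL-1β library.

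The positive acute-phase proteins were held almost whole. Of 28 members, 26 rose and none fell, against 3.6% of all genes called higher, with a median log2 fold change of 2.02 beside −0.22 over all genes, and 27 rose with TMM scaling. TruSeq called 27 of them higher, where it called 12.3% of all its genes higher, 21.8% lower and 34.1% in all. Pico called 26 higher, with 6.78% of all its genes higher, 10.8% lower and 17.6% in all. These shares over all genes stand beside the counts of every list below. Together the 28 transcripts took 14.9% to 16.6% of all V4 counts after IL-1β and 3.03% to 3.60% after saline. Haptoglobin (Hp), which binds free haemoglobin, had 242174, 260277 and 282224 reads after IL-1β and 71091, 68526 and 74023 after saline, a log2 fold change of 1.88 ± 0.09. Hemopexin (Hpx), which binds haem, rose by 1.97 ± 0.11, and the 3 fibrinogen chains Fga, Fgb and Fgg by 1.74 ± 0.10, 1.65 ± 0.16 and 1.89 ± 0.11. These genes were abundant before treatment and rose about as far as one another. The metallothioneins Mt1 and Mt2, which bind zinc and copper, started lower and rose further. Mt2 had 22976, 15696 and 14718 reads against 173, 36 and 429 (log2 6.96 ± 0.56) and Mt1 122159, 102393 and 106355 against 1618, 1100 and 2900 (log2 6.0 ± 0.23). Of the pentraxins, serum amyloid P (Apcs) rose by 3.43 ± 0.15 and C-reactive protein (Crp) by 2.25 ± 0.16 on the log2 scale. Lbp, which presents lipopolysaccharide to CD14, rose by 2.0 ± 0.14. Its partner Cd14 rose further, with 6216, 5640 and 3966 reads against 23, 53 and 47 (log2 7.05 ± 0.47).

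The members with the smallest changes lay close to the threshold. Hamp, which encodes the iron hormone hepcidin, had 14727, 13340 and 14630 reads against 4478, 7851 and 10249 (log2 1.0 ± 0.23, adjusted p 0.0174). C3, the central complement protein, had 25918, 25815 and 32813 against 21372, 21974 and 18084 (log2 0.46 ± 0.13, adjusted p 0.0495), and Itih3 stood equally close to the threshold at 0.0498. Orm3, with 36, 24 and 32 reads against 5, 5 and 10, was not called (log2 2.18 ± 0.67, adjusted p 0.061) though its treatments did not overlap, and TMM scaling called it higher. Hamp2 was the other member not called, with 134, 77 and 111 reads against 50, 256 and 210 and overlapping treatments. Leaving out any 1 library left 21 to 24 members called higher. Saa1, Saa2, Orm1, Orm2 and Orm3 have near-identical copies, so their separate values are uncertain.

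In the IL-1 pathway itself the members that rose were receptors, an adaptor and inhibitors. Of 15 members of the IL-1 list 5 rose and 1 fell, and the list's median was −0.09, which turned to 0.08 with TMM scaling. Il1rn, the receptor antagonist, had 2436, 2517 and 1581 reads against 39, 24 and 1 (log2 7.58 ± 0.93). Il1r1, the signalling receptor, had 1621, 1478 and 1635 against 246, 198 and 191 (log2 2.91 ± 0.20), and Il1r2, the decoy receptor that binds IL-1 without signalling, 19, 79 and 32 against 0, 0 and 6 (log2 4.98 ± 1.0). All 3 were apart between treatments, with Il1r2 at low counts. Irak3, an IRAK relative that dampens the signal, had 255, 330 and 187 against 15, 12 and 12 (log2 4.23 ± 0.57), and the adaptor Myd88 had 1537, 1573 and 1379 against 328, 313 and 261 (log2 2.33 ± 0.19). Il1rap, the shared co-receptor, fell, with 1344, 1492 and 1241 against 2065, 2586 and 1836 (log2 −0.65 ± 0.18), a call lost with TMM scaling at an adjusted p of 0.129 and without IL-1β A, IL-1β B, saline D or saline E. The ligands showed no call. Il1b had 11, 9 and 7 reads against 18, 7 and 0, and Il1a 0, 0 and 33 against 27, 12 and 17.

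Of 17 NF-κB subunits, inhibitors and targets 6 rose and none fell, and 8 rose with TMM scaling, against 10 in TruSeq and 8 in Pico. Nfkb2, the precursor of p52, had 931, 741 and 462 reads against 42, 29 and 67 (log2 3.96 ± 0.48), and Ikbke, an inducible kinase of the pathway, 1804, 2659 and 1797 against 154, 233 and 164 (log2 3.51 ± 0.27). Rela, which encodes p65, rose less, from 759, 841 and 725 to 1725, 1728 and 1504 (log2 1.10 ± 0.16). The inhibitor genes differed in their changes. Nfkbib had 1499, 1248 and 1233 reads against 336, 401 and 484 (log2 1.72 ± 0.19) and Bcl3 3995, 3049 and 2266 against 626, 761 and 1142 (log2 1.89 ± 0.25). Nfkbia, the fast-feedback inhibitor IκBα, had 1417, 1174 and 1072 against 826, 848 and 1266 and was not called (log2 0.34 ± 0.20, adjusted p 0.34), where the saline library of mouse F lay among the treated ones. TruSeq called it higher at a log2 of 0.41 ± 0.10. Relb (120, 78 and 47 against 13, 6 and 37) and Nfkbiz (70, 143 and 82 against 31, 29 and 39) had adjusted p of 0.0531 and 0.0606, and both were called with TMM scaling. Tnfaip3, the deubiquitinase A20, was at few reads, with 6, 3 and 15 reads against 24, 33 and 0.

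Downstream of IL-6 family cytokines 5 of 14 members rose and 1 fell, against 8 and 1 in both other kits. Stat3 had 4430, 4797 and 3718 reads against 1486, 955 and 1303 (log2 1.81 ± 0.19) and Pim3, a kinase gene induced by STAT signals, 5560, 5083 and 4384 against 1494, 1499 and 1892 (log2 1.63 ± 0.16). Osmr, the oncostatin M receptor, rose from 22, 6 and 0 to 42, 88 and 92 (log2 4.08 ± 1.07). These groups did not overlap, although Osmr was at few reads. Socs3, the feedback inhibitor of STAT3, had 1219, 601 and 264 against 174, 56 and 245 with only a narrow gap between treatments (log2 2.11 ± 0.63, adjusted p 0.0552, or 0.0392 with TMM scaling). Lifr, the receptor of leukaemia inhibitory factor, fell (log2 −1.07 ± 0.28), a call lost with TMM scaling at 0.0841 and without any 1 library other than saline F. Il6 itself was near 0, with 1 read in 6 libraries. The count of members that rose dropped to 3 without IL-1β mouse B and to 2 without saline E.

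**Figure D3:**
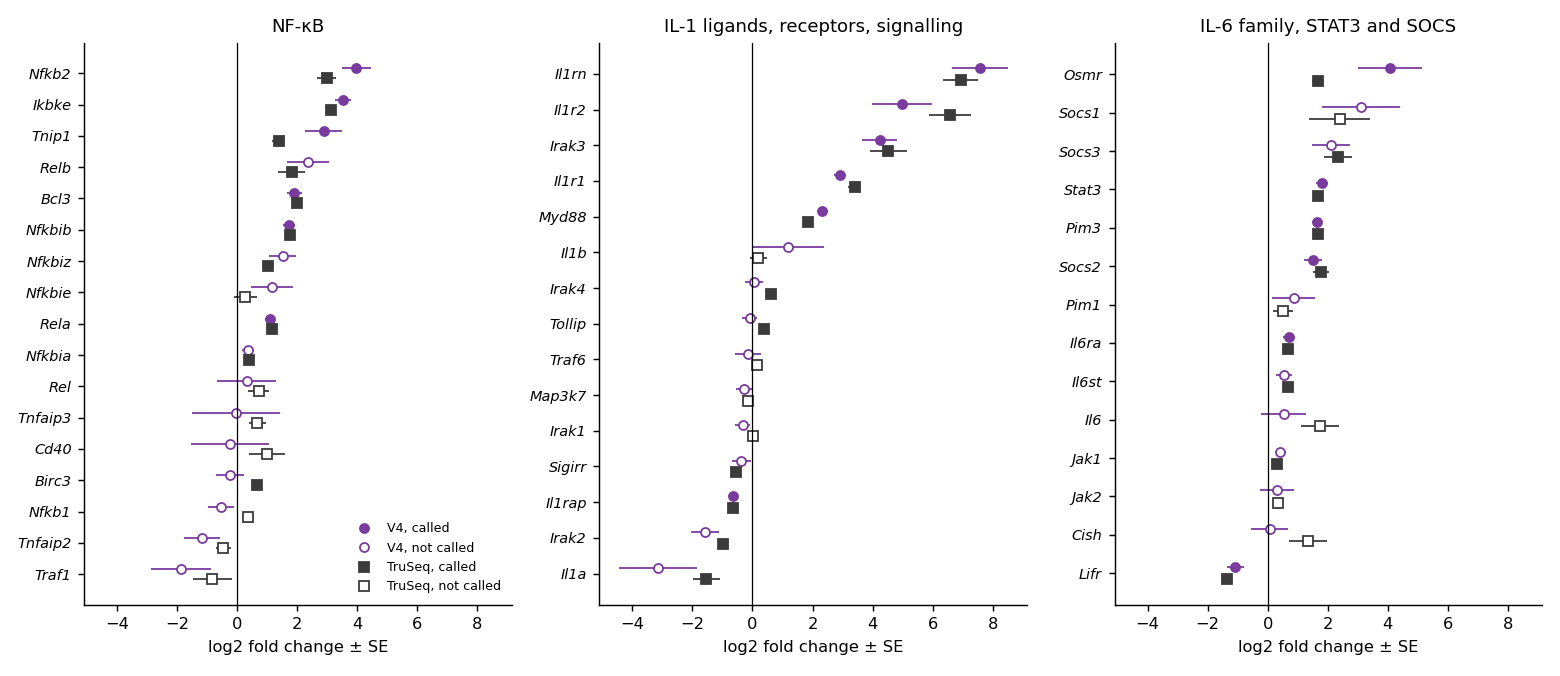
Log2 fold change (IL-1β over saline) with its standard error for each member of 3 signalling lists, V4 as circles and TruSeq as squares, filled where called. In V4 the bars are longer, and Relb, Nfkbiz, Nfkbia and Socs3 are open where TruSeq is filled.

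Some genes of leukocyte recruitment rose, as did most neutrophil markers. Of 25 chemokines 9 rose and 1 fell, and of 14 adhesion and endothelial genes 4 rose and 1 fell. Of 10 neutrophil markers 6 rose and none fell, with a median log2 fold change of 3.90. Over all genes 3.6% rose and 7.41% fell. Cxcl9, which attracts activated T cells, had 4505, 3423 and 2509 reads against 48, 76 and 120 (log2 5.47 ± 0.41), and the neutrophil chemokine Cxcl5 70, 48 and 17 against none, at least 45.0-fold higher. Ccl2, which attracts monocytes, had 178, 87 and 62 against 7, 11 and 7 (log2 3.53 ± 0.75). Each was far above saline in all 3 treated mice. The other neutrophil chemokine Cxcl1 had 1197, 249 and 185 reads against 315, 52 and 244, with the treatments mixed (adjusted p 0.349). Cxcl12, which retains cells in tissue, fell from 3423, 4213 and 3527 to 783, 651 and 1055 (log2 −2.18 ± 0.19). Icam1, the ligand of leukocyte integrins, had 747, 539 and 662 reads against 267, 177 and 142 (log2 1.78 ± 0.27), and Vcam1 222, 235 and 149 against 87, 46 and 39 (log2 1.88 ± 0.40). Sele, E-selectin, had 1, 0 and 18 against 0, 0 and 0 and Selp, P-selectin, 48, 63 and 13 against 15, 18 and 0, and neither was called in V4 while TruSeq called both higher. Without IL-1β A, saline D or saline E the adhesion genes that rose numbered 2, 2 and 1, and with a filter of 10 counts in 3 libraries 2.

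Among the neutrophil markers the calprotectin subunit S100a8 had 175, 301 and 228 reads against 18, 7 and 8 (log2 4.45 ± 0.63), and Retnlg 92, 187 and 95 against 3, 1 and 0 (log2 6.43 ± 0.81). IL-1β mouse B was the highest in both. Over the list the summed counts were 558 to 1086 after IL-1β and 42 to 77 after saline, and Ly6g and Mpo are not in the V4 table. Lymphocyte markers summed to 11 to 32 reads after IL-1β and 27 to 69 after saline, and none of 8 was called by limma-voom, edgeR or DESeq2 (2 had an unadjusted p under 0.05). Of 9 Kupffer cell markers 2 fell, Clec4f (log2 −1.03 ± 0.27, not called with TMM scaling) and Vsig4 (log2 −1.84 ± 0.45), with 1136 to 1719 reads in sum against 2287 to 3385. Without saline F, 4 fell, without IL-1β B, 1, and without any other library none. In V4 edgeR, DESeq2 and the filter of 10 counts in 3 libraries each gave 4 Kupffer cell markers lower. TruSeq called 5 of them lower and 1 higher, and Pico 4 lower and none higher. Of 8 sinusoidal endothelial markers Clec4g and Kdr fell, with log2 fold changes of −1.70 ± 0.30 and −2.28 ± 0.47, and the list summed to 753 to 946 reads against 1216 to 1682. Without IL-1β B or saline E, 1 of them fell. Not all endothelial markers went down. In V4 edgeR and DESeq2 each called 1 higher and 2 lower, and TruSeq called 1 and 5 and Pico 2 and 3. Of 8 stellate cell markers 1 fell (none with TMM scaling or without IL-1β B, IL-1β C or saline D), and of 6 bile duct and 5 erythroid markers none was called by limma-voom, with 2 and 0 at an unadjusted p under 0.05 and 1 and 0 called by edgeR and by DESeq2. Without IL-1β C, 1 bile duct marker rose. The part of these cells in the changes of other genes was not tested.

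Among interferon-stimulated genes, guanylate-binding proteins, large GTPases of cell-autonomous defence, rose most. Of 29 members 6 rose and 1 fell (7 and 0 with TMM scaling), against 13 and 2 in TruSeq. V4 called 3.6% of all genes higher and 7.41% lower, and TruSeq 12.3% and 21.8%. Gbp6 had 2136, 2532 and 1802 reads against 97, 74 and 19 (log2 5.37 ± 0.47), Gbp2 555, 601 and 404 against 13, 24 and 28 (log2 4.61 ± 0.49) and Gbp7 505, 542 and 314 against 79, 71 and 77 (log2 2.54 ± 0.34). Gbp3 (130, 180 and 59 against 80, 56 and 43) and Gbp5 (84, 8 and 11 against 2, 17 and 0) were not called, with 1 treated library well above or below the rest. Guanylate-binding genes are close relatives, so their single values are uncertain. Irgm1 rose (log2 1.42 ± 0.19). Irf1, an interferon regulatory factor, fell (log2 −1.43 ± 0.41), a call lost with TMM scaling at an adjusted p of 0.0942 and without any 1 library other than saline F.

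Of 20 immediate early, AP-1 and C/EBP genes 5 rose and 1 fell (5 and 0 with TMM scaling), against 10 and 2 in TruSeq. Jun had 479, 466 and 383 reads against 80, 110 and 131 (log2 2.07 ± 0.27) and Junb 2685, 1302 and 943 against 419, 213 and 616 (log2 1.97 ± 0.43). Dusp1, a phosphatase that shuts off MAP kinases, had 1716, 1828 and 1854 against 337, 875 and 691 (log2 1.62 ± 0.27). Cebpd rose from 98, 80 and 280 to 832, 512 and 375 (log2 2.06 ± 0.44) and Cebpa fell from 660, 890 and 1463 to 490, 513 and 481 (log2 −0.94 ± 0.27, adjusted p 0.0841 with TMM scaling). Saline mouse F was the highest saline library in Junb, Cebpd and Cebpa. The number that rose was 2 without IL-1β B, saline D or saline E, and none fell without IL-1β A, B or C or saline E.

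Cebpb, a C/EBP factor of the acute phase, is singled out after its values were seen. V4 counted 375, 386 and 292 reads after IL-1β and 1696, 1387 and 341 after saline (log2 −1.40 ± 0.54, adjusted p 0.129). In V4 2 saline libraries lay far above the treated ones and the library of mouse F lay among them. The same RNA gave 419, 318 and 416 and 179, 121 and 197 reads in TruSeq (log2 1.27 ± 0.19, adjusted p 0.000748) and 1831, 1736 and 1267 and 872, 595 and 878 in Pico (log2 1.07), and both kits called it higher. The difference in response between V4 and TruSeq was not called over all mice. Without mouse F it was, at a log2 difference of −3.55 and an adjusted p of 0.000614. The exons of Cebpb overlap those of Tmem189 on the other strand by 312 bases, and V4 cannot assign such reads to a strand. Tmem189 had 82, 129 and 200 V4 reads after IL-1β and 216, 305 and 264 after saline. Its part in the Cebpb counts was not tested.

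Of 17 oxidative and iron genes 5 rose and 3 fell, with 6 and 1 under TMM scaling. Nos2, inducible nitric oxide synthase, had 64, 38 and 22 reads against none in saline, at least 41.3-fold higher. Sod2, the mitochondrial superoxide dismutase, had 6997, 7193 and 6544 against 3756, 3923 and 4223 (log2 0.81 ± 0.12). The zinc and iron importer Slc39a14 rose from 1557, 1674 and 1801 to 4057, 4445 and 4130 (log2 1.34 ± 0.14), while the iron exporter ferroportin, Slc40a1, fell from 1123, 903 and 1101 to 200, 242 and 285 (log2 −2.10 ± 0.22). Both groups were tight and apart. The members that rose were 3 without saline E, and those that fell were 1 without IL-1β C, saline D or saline E.

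Of 27 endoplasmic reticulum (ER) folding and unfolded protein response genes 10 rose and 2 fell, with 13 and 0 under TMM scaling. TruSeq called 21 higher and 1 lower, and Pico 18 and 2. Of all genes V4 called 3.6% higher and 7.41% lower, so the 2 falls lay near that share. For TruSeq the shares were 12.3% and 21.8%, and for Pico 6.78% and 10.8%. Herpud1, which serves ER-associated degradation, had 30569, 32485 and 35993 reads against 9124, 12882 and 7961 (log2 1.76 ± 0.16). Creld2 had 9586, 10217 and 12902 against 2829, 4577 and 1557 (log2 2.0 ± 0.30), and Manf 10239, 8284 and 8301 against 1492, 3922 and 2741 (log2 1.82 ± 0.26). The chaperone BiP, Hspa5, had 43294, 38797 and 42619 against 12988, 27960 and 14339 (log2 1.27 ± 0.22). Saline mouse E was the highest saline library in all 4. Hyou1, another ER chaperone, had 635, 612 and 806 against 518, 642 and 205, where saline E lay among the treated mice (adjusted p 0.222), and TruSeq called it higher at a log2 of 1.64 ± 0.26. The 2 that fell were Ern1 (log2 −1.37 ± 0.35), the stress sensor IRE1α, and Creb3l3 (log2 −0.67 ± 0.16), and TMM scaling called neither. Without IL-1β A, IL-1β C or saline F, 1 fell, and without any other library none.

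In the lists of bile acid, drug and fuel metabolism more genes fell than rose, with library totals and with TMM scaling, except in cholesterol synthesis. Of 21 bile acid genes 13 fell and none rose, against 7.41% of all genes called lower, with a median log2 fold change of −0.84 (10 fell with TMM scaling, 16 in TruSeq and 17 in Pico). Slc10a1, the sodium-dependent bile acid importer NTCP, had 4441, 3842 and 4023 reads after IL-1β and 7646, 8736 and 9260 after saline (log2 −1.05 ± 0.13). Cyp8b1, the 12α-hydroxylase that sets the share of cholic acid, had 2075, 2256 and 1577 against 7827, 3940 and 6610 (log2 −1.59 ± 0.25). Abcc2, the canalicular exporter MRP2, had 322, 271 and 267 against 663, 791 and 650 (log2 −1.28 ± 0.20). The treatments were apart in each. The bile acid receptor FXR, Nr1h4, and its target SHP, Nr0b2, fell, with log2 fold changes of −0.59 ± 0.15 and −1.30 ± 0.27, although the call of Nr1h4 was lost with TMM scaling. Abcb4 and Abcg5, canalicular lipid exporters, missed the threshold at adjusted p of 0.0504 and 0.0516. The count that fell was 7 without IL-1β C, 8 without saline D, 7 without saline E and 16 without saline F.

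Of 31 xenobiotic cytochromes P450, 16 fell and 1 rose in V4, but 5 fell with TMM scaling. TruSeq called 24 lower and Pico 21. Cyp2a5 had 2296, 3718 and 3091 reads against 5704, 6804 and 7522 (log2 −1.15 ± 0.18) and Cyp3a25 4021, 4534 and 4435 against 9080, 9434 and 6858 (log2 −0.95 ± 0.16). Cyp2b10 went the other way, with 870, 1398 and 2352 reads against 218, 501 and 419 (log2 1.99 ± 0.39), and all treated libraries lay above saline. No member of the list rose without saline D or saline F. The main drug-metabolising forms Cyp3a11 and Cyp2e1 fell, with log2 fold changes of −0.59 ± 0.14 and −0.63 ± 0.13, at adjusted p of 0.0197 and 0.00906, and with TMM scaling of 0.118 and 0.0625. The count that fell ranged from 4 without saline E through 6 without IL-1β B, 8 without IL-1β A and 9 without IL-1β C or saline D to 17 without saline F. Cyp2c, Cyp2d, Cyp2a and Cyp3a genes are clusters of close copies, and their single values are uncertain.

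Of 31 conjugation enzymes 11 fell and 1 rose, with 6 and 1 under TMM scaling. Ugt2b34, a glucuronosyltransferase, had 1209, 1216 and 1073 reads against 3050, 2852 and 2236 (log2 −1.20 ± 0.17). Nnmt, which methylates nicotinamide, rose from 3707, 4858 and 4139 to 9223, 9963 and 14990 (log2 1.41 ± 0.19). The falls numbered 7 without IL-1β A or saline D, 6 without IL-1β B or C and 5 without saline E.

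In glucose handling 8 of 15 members fell and 1 rose (7 and 1 with TMM scaling), and 8 fell in TruSeq and in Pico too, with a median of −0.89. Slc2a2, the glucose transporter GLUT2, had 483, 623 and 379 reads against 2198, 2389 and 2382 (log2 −2.25 ± 0.19). G6pc, the last enzyme of glucose release, had 376, 475 and 199 against 1304, 2985 and 4874 (log2 −3.01 ± 0.49), with a wide saline group. Gys2, liver glycogen synthase, had 652, 1076 and 1016 against 2427, 2896 and 2029 (log2 −1.43 ± 0.22). The insulin receptor substrate Irs1 was at 0 in the 3 treated libraries and at 16, 44 and 23 reads in saline, at least 27.7-fold lower. Igfbp1, an insulin-repressed secreted protein, rose from 448, 153 and 646 to 3170, 1480 and 986 (log2 2.24 ± 0.51). Pck1, the gate of gluconeogenesis, was not called, with 17365, 26477 and 31433 against 35036, 35942 and 19917. With 1 library left out, 6 to 8 members fell, and none rose without IL-1β B, saline D or saline E.

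Of 18 lipogenic genes 8 fell and 1 rose (6 and 1 with TMM scaling). Srebf1, the master factor of fatty acid synthesis, had 481, 691 and 425 reads against 1955, 4157 and 5022 (log2 −2.72 ± 0.35), and Gpam, which starts triglyceride assembly, 190, 95 and 66 against 494, 296 and 528 (log2 −1.99 ± 0.39). Fasn, fatty acid synthase, had 1027, 713 and 674 against 1217, 2016 and 3622 (log2 −1.38 ± 0.34). Scd1, its desaturase, was spread over 26981, 41267 and 12684 and 12267, 33598 and 27754 reads and was not called. Dgat2, of triglyceride synthesis, was the one that rose (log2 0.53 ± 0.15, adjusted p 0.0413). The falls numbered 3, 2 and 3 without IL-1β B, IL-1β C and saline E, and none rose without any 1 library other than IL-1β A. Of 25 genes of fatty acid oxidation and ketogenesis 8 fell and 1 rose (6 and 1 with TMM scaling). Acaa2, a mitochondrial thiolase of β-oxidation, had 17144, 17912 and 16577 reads against 22658, 26228 and 27679 (log2 −0.56 ± 0.11). Fgf21, a fasting hormone, was the one that rose, with 67, 79 and 68 against 19, 6 and 21 (log2 2.36 ± 0.57). Ppara and Cpt1a were not called (log2 −0.36 ± 0.20 and −0.75 ± 0.29). These falls numbered 4 without IL-1β A, 1 without IL-1β C, 1 without saline E and 11 without saline F, and none rose without IL-1β B, IL-1β C, saline D or saline E.

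Of 24 genes of cholesterol synthesis and uptake 4 rose and 2 fell (4 and 0 with TMM scaling). Over all genes 3.6% rose and 7.41% fell, so the falls lay near that share. Mvd, mevalonate diphosphate decarboxylase, had 835, 861 and 820 reads against 331, 287 and 252 (log2 1.55 ± 0.20) and Dhcr7 1175, 1549 and 1204 against 939, 508 and 637 (log2 0.96 ± 0.23). The number that rose was 1 without IL-1β B, IL-1β C or saline E and 2 without IL-1β A or saline F, and none fell without IL-1β B, IL-1β C or saline D.

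In the urea cycle and amino acid catabolism 11 of 27 genes fell and 2 rose (7 and 3 with TMM scaling). Cps1, the entry enzyme of the urea cycle, had 5724, 6665 and 7160 reads against 13335, 15461 and 12071 (log2 −1.06 ± 0.14). The enzymes that rose were serine dehydratase Sds (12455, 12470 and 13914 against 2722, 5177 and 7648, log2 1.45 ± 0.27) and tyrosine aminotransferase Tat (46537, 55083 and 51289 against 21661, 35999 and 22131, log2 0.98 ± 0.17), both glucocorticoid-responsive. The falls numbered 7 without IL-1β A or saline E.

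Among 17 nuclear receptors and hepatocyte factors 4 fell and none rose, with either scaling. Nr1i3, the xenobiotic receptor CAR, had 226, 279 and 198 reads against 2283, 2249 and 2494, the clearest fall of the list (log2 −3.32 ± 0.20, adjusted p 3.73e-06). Thrb, a thyroid hormone receptor, had 70, 43 and 54 against 212, 145 and 173 (log2 −1.66 ± 0.35), and Foxa1 16, 6 and 52 against 153, 134 and 113 (log2 −2.89 ± 0.62). Rxra, the shared partner of many of these receptors, had 816, 1024 and 860 against 2686, 2572 and 1430 (log2 −1.25 ± 0.25), where mouse F was the lowest saline library. In TruSeq Rxra had 4132, 5258 and 5851 and 6740, 5963 and 6211 reads (log2 −0.28 ± 0.13) and was not called, and without mouse F the difference between these kits was called at an adjusted p of 0.0297. Hnf4a was not called in V4 (log2 0.48 ± 0.20, adjusted p 0.166), while TruSeq called it higher (log2 0.91 ± 0.08). The count was 2 without IL-1β B, IL-1β C or saline E.

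Of 18 clock genes 6 fell and 2 rose (5 and 2 with TMM scaling), and with 1 library left out 5 or 6 fell. Without any 1 library other than IL-1β C, 1 rose. Per3 had 7, 16 and 29 reads against 168, 127 and 178 (log2 −3.34 ± 0.56) and Dbp, a D-box activator, 114, 232 and 152 against 601, 640 and 595 (log2 −1.93 ± 0.27). Its relatives Hlf and Tef fell, with log2 fold changes of −2.08 ± 0.29 and −1.38 ± 0.24. The opposing repressor Nfil3 rose from 329, 267 and 503 to 1475, 1100 and 848 (log2 1.66 ± 0.27). The core activator Arntl rose on few reads, 103, 81 and 15 against 1, 11 and 1 (log2 4.11 ± 1.17). Per1 and Per2, called in TruSeq higher and lower in turn, were not called in V4 (log2 0.81 ± 0.36 and −1.71 ± 0.57). TruSeq called 2 clock genes higher, Per1 among them, so 1 of the 2 that rose in V4 was not called there. Both treatments were collected at the same interval after injection, and the clock time of collection is not given in the sources used here.

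Of the plasma proteins known to fall in the acute phase, V4 called only part lower. Of 18 negative acute-phase and carrier proteins 8 fell and none rose, but with TMM scaling 2 fell and 1 rose. TruSeq called 11 lower and 2 higher, and Pico 12 and 1. The median log2 fold change was −0.30 in V4, −0.35 in TruSeq and −0.34 in Pico, beside −0.22, −0.17 and −0.12 over all genes. Alb had 202323, 174049 and 201279 reads against 268740, 294107 and 290197 (log2 −0.56 ± 0.08, adjusted p 0.0222 with TMM scaling) and Igfals, the carrier subunit of IGF complexes, 1338, 973 and 737 against 2364, 3509 and 3675 (log2 −1.66 ± 0.23). Transthyretin (Ttr) and apolipoprotein A-I (Apoa1) were not called, with mouse F the highest saline library in both, 66594, 79574 and 104317 and 166793, 175363 and 288865 reads against 86378, 70874 and 66538 and 184775, 150922 and 163320. Leaving out a library left 2 falls (IL-1β A, IL-1β B or saline E), 3 (IL-1β C), 4 (saline D) or 5 (saline F), and 2 members rose without saline F.

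In complement, V4 called 1 gene higher (C3) and 1 lower of 25, against 6 and 12 in TruSeq and 6 and 8 in Pico. Over all genes V4 called 3.6% higher and 7.41% lower, TruSeq 12.3% and 21.8%, and Pico 6.78% and 10.8%. The V4 complement counts thus lay near or below the shares over all genes. The gene that fell was C1qc, a macrophage product, with 194, 275 and 231 reads against 596, 467 and 450 (log2 −1.11 ± 0.23). C8a, a subunit of the membrane attack complex, had 2353, 2240 and 2936 against 5899, 5063 and 2807, with mouse F again apart from its mates (adjusted p 0.0718). Without saline F, 8 complement genes fell, and without IL-1β A, IL-1β C or saline D none did by limma-voom. None rose without any 1 library other than saline F. C4b, which TruSeq called higher (log2 0.49 ± 0.12), had 6312, 7454 and 8532 reads against 7992, 7143 and 6239 in V4. Of 21 coagulation and fibrinolysis genes 5 fell and 2 rose (4 and 2 with TMM scaling). Plasma prekallikrein Klkb1 and factor V (F5) fell, with log2 fold changes of −0.97 ± 0.18 and −0.89 ± 0.17, and fibrinogen-like Fgl1 rose from 5948, 4554 and 5325 to 15191, 12672 and 17717 (log2 1.53 ± 0.16). Without saline F, 9 coagulation genes fell, and without IL-1β A, IL-1β B, saline D or saline E, 1 rose.

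Some large gene sets were scarcely called in V4. Of 72 nuclear-encoded respiratory chain genes 1 fell and none rose, against 38 and 0 in TruSeq and 15 and 0 in Pico. The median log2 fold change was −0.17 in V4 and −0.29 in TruSeq, beside −0.22 and −0.17 over all genes. The V4 median of the list thus did not lie below that of all genes. The median standard error was 0.20 in V4 and 0.10 in TruSeq. The gene called was Sdhd, of succinate dehydrogenase, with 4254, 4351 and 3890 reads against 6081, 6219 and 6972 (log2 −0.62 ± 0.13). Ndufb10, of complex I, had 2417, 1989 and 1845 against 1969, 2292 and 4012 (log2 −0.34 ± 0.24, adjusted p 0.443), with a single high saline library, that of mouse F. TruSeq gave Ndufb10 a log2 of −0.56 ± 0.11. Without saline F, 7 members fell, and without IL-1β C none did. By TMM scaling 1 fell, and the list's median was −0.01 beside −0.06 over all genes.

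Of 35 proteasome genes none was called in V4 by limma-voom with library totals, and 1, Psmd7, rose with TMM scaling, where TruSeq called 8 higher. Psmd7 had 1759, 2280 and 1861 reads against 1483, 1412 and 1509 (log2 0.42 ± 0.16, adjusted p 0.123). Of 75 ribosomal protein genes none was called with either scaling, against 5 higher in TruSeq, and of 13 mitochondrially encoded mRNAs none, against 5 lower in TruSeq. TruSeq called 12.3% of all its genes higher and 21.8% lower, and its ribosomal calls lay below that share. At an unadjusted p under 0.05 there were 1 proteasome, 2 ribosomal and no mitochondrial genes, edgeR called 1, 0 and 0 and DESeq2 3, 1 and 0. Without saline F, 2 ribosomal genes rose and 5 mitochondrial mRNAs fell. The mitochondrial mt-Nd1 had 21590, 20614 and 23141 reads against 33793, 32211 and 18677, with mouse F below the treated mice and its mates above them (log2 −0.32 ± 0.20, adjusted p 0.381). The median over the mitochondrial list was −0.07 and turned to 0.10 with TMM scaling, beside −0.22 and −0.06 over all genes. No member of any list was called in opposite directions by V4 and TruSeq. A difference in counts of calls between kits is not a tested difference in response. The kits also differ in RNA amount, and TruSeq in read length and sequencer. Pico depletes ribosomal RNA from total RNA, where V4 and TruSeq take polyadenylated RNA, and its totals were only 4024632 to 4134070 reads. The paper states that the TruSeq libraries were made in an earlier study. These differences cannot be told apart here.

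**Figure D4:**
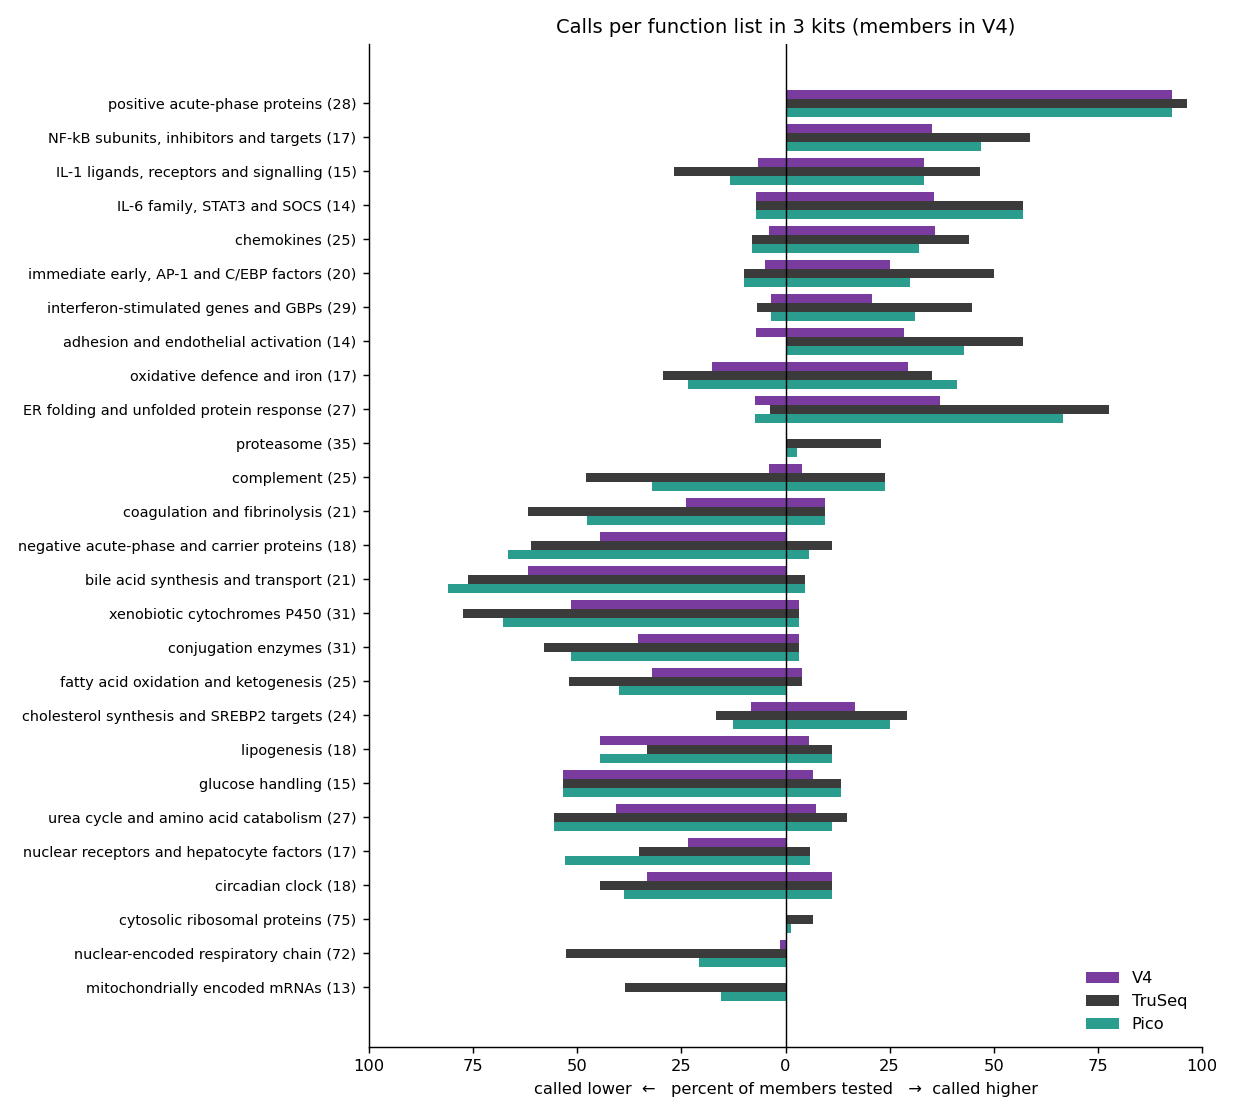
Percent of the members of each function list called lower (left of 0) or higher (right of 0) in V4, TruSeq and Pico, over members in the V4 table (number in parentheses). V4 comes close to the other kits for acute-phase proteins and glucose handling, and has 1 of 72 respiratory chain genes lower where TruSeq has 38.

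Calls in V4 followed the read count and the transcript length. Of genes with a mean under 10 V4 reads 3.31% were called, of those at 10 to 100 reads 7.58%, at 100 to 1000 reads 17.4%, at 1000 to 10000 reads 29.5% and above 10000 reads 43.2%. TruSeq called 16.2%, 42.3%, 49.4%, 59.4% and 69.8% of the genes of these classes in its own table (5386, 4792, 5474, 1326 and 169). Among genes with a mean of 200 to 2000 TruSeq reads, the share called in V4 was 4.38% for transcripts under 1 kb (320 genes), 20.8% at 1 to 2 kb (888), 22.7% at 2 to 3 kb (1118), 19.2% at 3 to 4 kb (1093), 16.6% at 4 to 6 kb (1223) and 9.77% above 6 kb (809). TruSeq called 27.8%, 50.2%, 56.1%, 56.5%, 53.3% and 47.2% of these classes, so its share was also lowest under 1 kb. The median level in V4 relative to TruSeq moved from a log2 of 0.79 under 1 kb to −2.30 above 6 kb, and the median standard error of the V4 fold change was lowest, 0.20, at 1 to 2 kb and highest, 0.38, above 6 kb. In TruSeq the error stayed between 0.12 and 0.13. The V4 error was thus wider than that of TruSeq in every length class, under 1 kb too (0.24 against 0.12). Long transcripts also had fewer reads in V4 than in TruSeq. The shortest had more V4 reads, and theirs was the length class in which mouse F stood furthest from its group. The part of that library in the share called was not tested.

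**Figure D5:**
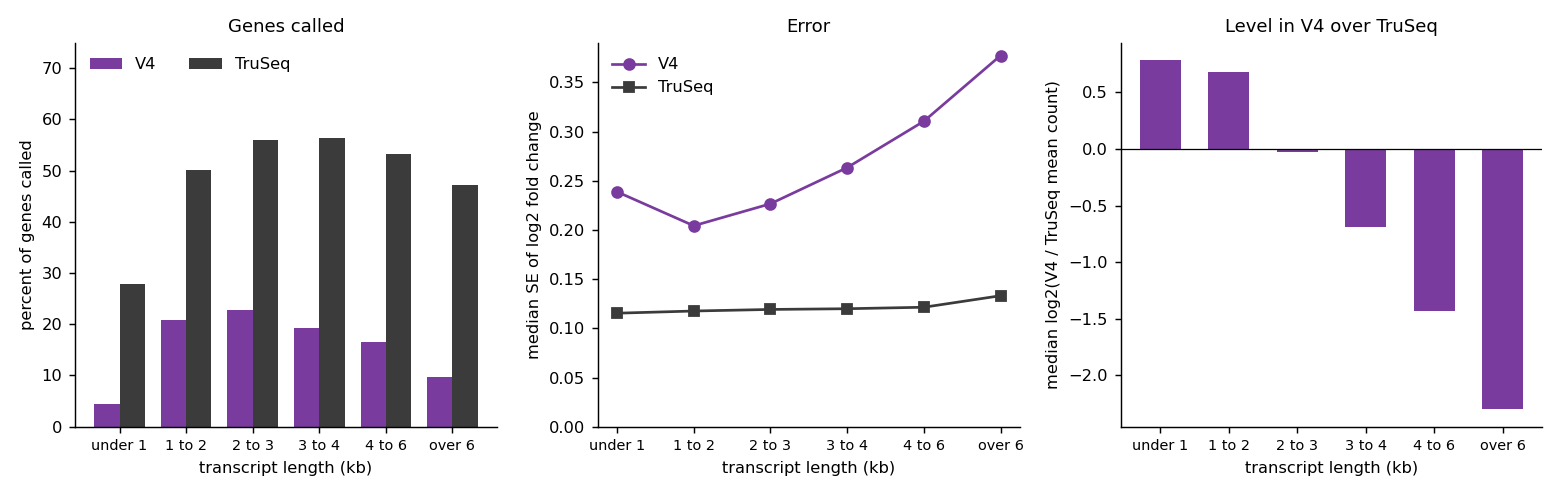
Genes with 200 to 2000 mean TruSeq reads by transcript length in kb: percent called, median standard error of the log2 fold change, and median log2 ratio of V4 to TruSeq mean counts. The V4 share called peaks at 22.7% for 2 to 3 kb while its level relative to TruSeq drops from 0.79 to −2.30.

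V4 also read some transcripts in part of the libraries of a treatment only. Counted here are genes at 0 in at least 1 library beside at least 20 reads in another of the same treatment. In V4 there were 260 after IL-1β (2.33%) and 183 after saline (1.58%). TruSeq had 2 and 3, and Pico 1 (0.00989%) and 21 (0.197%). Pico totals were only 4024632 to 4134070 reads, so a cut of 20 reads was stricter there. With at least 50 reads in place of 20, V4 had 26 (0.286%) after IL-1β and 17 (0.178%) after saline. Of the V4 genes at the cut of 20, 58, 143 and 99 were at 0 in IL-1β mice A, B and C. In saline mice D, E and F these were 32, 60 and 112, and a gene could be at 0 in more than 1 library. Each of the 6 libraries contributed. In 1657 genes averaging 20 TruSeq reads or more, the adjusted p was at most 0.01 in TruSeq and over 0.1 in V4. The largest TruSeq changes among them were in Gm5828, Dixdc1, A530020G20Rik, Cys1 and Gm7694. Gm5828 had 32, 49 and 89 V4 reads against 15, 14 and 18 (log2 1.71 ± 0.61, in TruSeq 3.73 ± 0.60). Dixdc1, a Wnt pathway protein, had 14, 46 and 7 against 128, 32 and 113 (log2 −2.18 ± 0.82, in TruSeq −3.71 ± 0.28). Cys1, of the primary cilium, had 12, 15 and 2 against 23, 30 and 50 (log2 −2.07 ± 0.78, in TruSeq −3.25 ± 0.45). These 3 moved the same way in both kits, with a smaller change in V4. The V4 error was wider for Dixdc1 and Cys1 and about equal for Gm5828. All were chosen by the size of the TruSeq change, so a smaller V4 change can follow from that choice alone. A530020G20Rik had 2 reads in 1 of the treated libraries and 3 in 1 of the saline libraries, too few to compare, and Gm7694 had 6, 15 and 10 against 7, 3 and 7.

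The difference in response between V4 and TruSeq was tested gene by gene. None of 17147 genes was called by limma-voom, with 1090 at an unadjusted p under 0.05 (6.36%), none by edgeR and 72 by DESeq2. When the shared mice entered the fit as a replicate block none was called and 1263 had an unadjusted p under 0.05. Against Pico none of 16395 was called, with 900 at an unadjusted p under 0.05 (5.49%), none by edgeR and 17 by DESeq2. Without mouse F, 57 genes differed between V4 and TruSeq, 56 of them with a lower fold change in V4, and 39 between V4 and Pico.

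The genes with the smallest p for a difference from TruSeq included Plat, Nlrp12, Gm11992 and Atp6v0d2, all at an adjusted p of 0.101. All but Nlrp12 among these read 0 in the treated V4 libraries. Plat, tissue plasminogen activator, had 0, 0 and 0 V4 reads after IL-1β and 21, 10 and 17 after saline, and 15, 9 and 5 and 11, 7 and 4 reads in TruSeq. Gm11992 had none against 13, 20 and 24 in V4 and 2, 3 and 3 against 7, 4 and 4 in TruSeq. Atp6v0d2, a subunit of the proton pump, had none against 12, 30 and 30 in V4 and 9, 5 and 11 against 11, 12 and 21 in TruSeq. The V4 falls of these genes stood on counts of 10 to 30 reads. Nlrp12, an NLR family member that restrains NF-κB (mm9 chr7:3221511-3249741), differed in another manner. Its V4 counts were 1289, 1097 and 1569 after IL-1β and 1068, 1088 and 951 after saline (log2 0.34 ± 0.18), while TruSeq counted 1668, 1517 and 1817 and 619, 546 and 539 (log2 1.60 ± 0.11). V4 thus counted fewer reads than TruSeq in the treated mice and more in the saline mice.

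Furin, the protease that matures many secreted proteins (mm9 chr7:87533471-87550322), was the 1 gene averaging 20 V4 reads or more with an adjusted p of at most 0.01 in V4 and over 0.1 in TruSeq. V4 counted 281, 338 and 500 reads after IL-1β and 1349, 1524 and 858 after saline (log2 −1.73 ± 0.29, adjusted p 0.00352). TruSeq counted 1732, 2134 and 2510 and 2180, 2063 and 2348 (log2 −0.02 ± 0.13). In V4 every treated library lay below every saline library, and in TruSeq the treatments overlapped. Without mouse F the difference between the kits was called for Furin (log2 difference −2.01, adjusted p 0.00971), Nlrp12 (−1.28, 0.0327) and Atp6v0d2 (−4.83, 0.0441). For Pico the smallest p belonged to Med12l, Pdlim2, Tm4sf20, Fam109b and Zfp319, all at an adjusted p of 0.408. Tm4sf20 had 60, 58 and 48 V4 reads after IL-1β and none after saline, at least 55.3-fold higher, beside a log2 fold change of 1.18 in Pico and 6.23 ± 0.42 in TruSeq.

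Since V4 keeps no strand, reads of a gene and of an antisense partner cannot be told apart. Of 3819 genes with an exon over an exon of the other strand 10.4% were called in V4, and of 14232 without such overlap 11.2%. The share with an unadjusted p under 0.05 for a difference from TruSeq was 6.46% and 6.33%. Gm17494, which shares 296 bases with Gclm, an enzyme of glutathione synthesis, averaged 371.5 reads in V4 and 0.667 in TruSeq. B430119L08Rik, opposite the antitrypsin gene Serpina1c, averaged 166.8 against 1.33, and Gm16559, opposite the alcohol dehydrogenase Adh1, 28.2 against 0.167. None of these 3 was called in V4. They were picked, after their values were seen, from the pairs with a high V4 level relative to TruSeq. Other genes high by that ratio lay opposite genes of few reads. 4930412F15Rik averaged 404.7 reads in V4 and 0.833 in TruSeq, opposite Tmem8b at 5 and 17.8. Scand1 averaged 138.3 and 2.5, opposite 4921517L17Rik at 17.3 and 4.17. The part of a partner in any of these counts was not tested.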

How the data were processed

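Liver RNA of 6 mice, 3 given IL-1β and 3 given saline, was prepared with each of 3 kits, and the 6 V4 libraries were analysed. The deposited values are whole-number read counts per gene. The authors aligned the reads with GSNAP to mm9, then filtered, resampled and counted them with PORT v0.8.5b-beta, in which reads had to follow annotated junctions, V4 reads were counted without regard to strand, and TruSeq and Pico counts used here are those of the sense strand. Resampling to like depth makes totals uninformative about the original yield. No molecular identifiers were used, so PCR copies cannot be removed, and exact intervals and the floor of 3 reads cover counting error only. V4 totals were 12013453 to 12352473 reads and Pico totals 4024632 to 4134070.

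The counts as deposited were fitted per kit by limma-voom (limma 3.58.1, R 4.3.3) with library totals, IL-1β against saline, following the study's methods. Genes were called at a Benjamini-Hochberg adjusted p of at most 0.05 over all genes of the table, and errors are standard errors. The difference in response between kits was a kit by treatment term. The test was checked on simulated data. Alternatives were TMM factors, edgeR 4.0.16, DESeq2 1.42.0, a filter of 10 counts in 3 libraries, adjusted p of 0.1 and 0.01, each library left out, and the mouse as a block. Same-mouse libraries of V4 and TruSeq deviated together (correlations of 0.175 to 0.435), as did those of V4 and Pico (0.0789 to 0.234), and they came from the same animals, so the mice pair the kits. Within V4 no replicate number is shared between treatments.

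Positions in V4 are those of the GENCODE M1 annotation on mm9, since the coordinates in the V4 table are wider by 298 bases for 18050 of 18051 genes. Promoters are from RefSeq on GRCm38.p6, matched by symbol, and no coordinates were converted. Of 694 genes in 27 function lists 689 are in the V4 table. Genes named are the 12 largest called changes each way among those with a mean of at least 20 reads and no overlap between treatments, the 4 smallest p in each list plus 2 members called in TruSeq but not in V4, the 5 smallest p for a difference from each other kit, the 5 largest changes called in TruSeq and not in V4 and the converse, and the 5 highest V4 counts beside a 0 in the same treatment. All other list members named were chosen after their values were seen. Some genes that the rule picks are not reported here. The lists, members and tests were chosen with earlier results of these data known.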

Additional observations from a re-analysis of the deposited data

How the results depend on the processing

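The number of V4 genes that rose was 1129 by DESeq2 and 300 at an adjusted p of 0.01, and the number that fell was 874 with TMM factors, 2044 at an adjusted p of 0.1 and 464 at 0.01. Without 1 library the genes that rose numbered 341 to 589 and those that fell 567 to 1504. The other counts of the V4 response (TMM, edgeR and the filter among them) lay within 1.5 times. Of the 1986 genes called, 84.7% were also called by DESeq2, 76.7% with TMM factors, 76.3% by edgeR and 86% after the filter. For the difference between kits DESeq2 called 72 genes against TruSeq and 17 against Pico. Leaving out 1 mouse gave 0 to 57 and 0 to 39, the highest without mouse F. With the mouse as a replicate block 0 genes were called in both, with 1263 and 1021 at an unadjusted p under 0.05. No result turned direction among those called. Over 48 counts of list members 370 of the alternatives stayed within 1.5 times of the main count and 206 moved, and of the values of 165 named genes 1473 kept their side of the threshold, 66 passed it and 106 lost it. The cause was not tested. Of genes under 10 V4 reads 3.31% were called, with a median standard error of 0.94 in log2 units, and TruSeq called 16.2% of those in its own table.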

Other observations

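The 5 highest V4 counts that stood beside a 0 in another library of the same treatment were in the genes Cav1, Fmr1nb, Ces2b, Cbx2 and Elac1. Cav1, a membrane scaffold of caveolae, had 758, 0 and 24 reads in IL-1β mice A, B and C and 43, 34 and 23 in saline mice D, E and F. Fmr1nb, of the FMR1 neighbour locus, had 0, 148 and 0 after IL-1β and 0, 8 and 89 after saline. Ces2b, a carboxylesterase, had 46, 82 and 50 reads after IL-1β and 143, 5 and 0 after saline. Cbx2, a Polycomb protein, had 0, 39 and 88 after IL-1β and 53, 62 and 16 after saline. Elac1, a nuclease that trims transfer RNA, had 50, 41 and 6 after IL-1β and 63, 74 and 0 after saline. In each of these the spread within a treatment was wider than the distance between the treatments.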
